A study of Mus musculus with 12 samples.

Results

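Aminoacyl tRNA synthetases are the enzymes that join each amino acid to its transfer RNA (tRNA). The set described here holds 33 genes out of 19309 measured with a probe set of a single gene symbol. Members were taken by name: the symbol had to be a one-letter amino acid code followed by "ars", with an optional a, b or 2, or to be Eprs. A gene with several such probe sets is represented by the brightest on average. Of the 33 members, 17 encode cytosolic enzymes and 16, whose symbols end in 2, encode mitochondrial enzymes. The rule used no measured difference between groups. All 33 members carry the same symbol in RefSeq. The cytosolic methionine enzyme, Mars1, is spelled so that it falls outside the rule, and Aars shares its probe set with another gene symbol. The cytosolic aspartate enzyme, Dars, was not analysed here.

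The study profiled thymus RNA of the FVB/N mouse strain on 12 arrays in 3 groups. Of these, 4 arrays hold Dnmt3a-deficient T-cell lymphomas and 5 hold control T-cell lymphomas, whose genotype is labelled wild type. MYC drove both kinds of tumor, Dnmt3a was deleted in blood cells for the first kind, and the age of both is labelled terminal with no number. Which promoters drive MYC and the deletion is not stated in the sources used here. The 3 remaining arrays hold thymocytes of wild-type mice without tumors at 24 days after birth. No label ties each array to its own animal, and every p-value rests on the spread among these samples, which may be technical. Age, and any batch, cannot be told apart from tumor state.

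Each synthetase charges the tRNAs of 1 amino acid, and the glutamate and proline activities of the cytosol are fused in a single protein, Eprs. The cytosol and the mitochondrion mostly use different enzymes encoded by different nuclear genes, while Gars and Kars each make both forms from a single gene. In animals, several cytosolic synthetases sit together in a multisynthetase complex held by the scaffold proteins Aimp1, Aimp2 and Eef1e1. MYC is known as an activator of genes for protein synthesis, and the transcription factor ATF4 induces many cytosolic synthetases when amino acids are short.

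The values are log2 expression on the array's own scale, so a difference of 1 is a 2-fold change. They are relative to the other signals of the same array, and in such bulk samples fewer cells of a type and less RNA per cell cannot be told apart. Dnmt3a was 7.33, 7.62, 7.19 and 7.53 on the 4 arrays of deficient tumors, 8.58, 8.52, 8.48, 8.19 and 9.57 in control tumors and 9.63, 9.48 and 9.33 in normal thymocytes. Every deficient array lay below every other array. The probe set of mouse Myc was lower in both tumor groups, with means of 6.41 ± 0.26 (SD, n = 4) in deficient tumors, 6.65 ± 0.58 (SD, n = 5) in control tumors and 9.60 ± 0.23 (SD, n = 3) in normal thymocytes. The mean of the T-cell markers was 9.98 to 10.53 in deficient tumors, 10.18 to 10.85 in control tumors and 11.48 to 11.54 in normal thymocytes, and 7 of 12 markers in deficient tumors and 6 of 12 in control tumors were lower than in normal thymocytes. Neutrophil markers averaged 5.39 to 6.05 in deficient tumors, 8.16 and 7.96 in control tumors 3 and 4, 5.64 to 5.99 in the other control tumors and 6.37 to 6.84 in normal thymocytes, and none of 11 was called in any comparison. Control tumor 2 had an adipocyte marker mean of 8.38, while no other array passed 5.58. Macrophage markers averaged 7.08 to 7.94 in deficient tumors, 6.26 to 8.08 in control tumors and 6.80 to 6.99 in normal thymocytes, and 2 of 11 were called higher in deficient tumors and 1 in control tumors. Erythroid markers averaged 6.92 to 7.29 in deficient tumors, 6.48 to 7.25 in control tumors and 6.30 to 6.73 in normal thymocytes, and 1 of 5 was called higher and 1 lower in each tumor group. Of all genes, 18.7% were called higher and 19.0% lower in deficient tumors, and 13.0% and 11.3% in control tumors, so the macrophage and erythroid counts are near these shares. The part of these cell types in the synthetase differences was not tested. On the scale of the deposited values, 6 arrays had a 75th percentile of 8.50 to 8.60, namely every deficient tumor plus control tumors 1 and 2, and the remaining 6 had 8.13 to 8.30. The synthetases are therefore also given below with the control tumors divided by that percentile.

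Many synthetases were higher in the lymphomas than in normal thymocytes. In Dnmt3a-deficient tumors 21 of 33 members rose, 1 fell (Qars) and 11 did not pass the test. This was an adjusted p under 0.05 by limma, with Benjamini-Hochberg adjustment over all 19309 genes. The same test called 18.7% of all genes higher and 19.0% lower. In control tumors 15 members rose, 1 fell (Aars2) and 17 did not pass, where 13.0% of all genes were called higher and 11.3% lower. Both comparisons use the same 3 arrays of normal thymocytes. A rise of at least 2-fold was seen for 12 members in deficient tumors, against 11.8% of all genes, and for 10 members in control tumors, against 7.61% of all genes. The median difference of the 33 members from normal thymocytes was 0.68 in deficient tumors and 0.46 in control tumors, where the medians of all genes were -0.10 and -0.08.

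**Figure D1:**
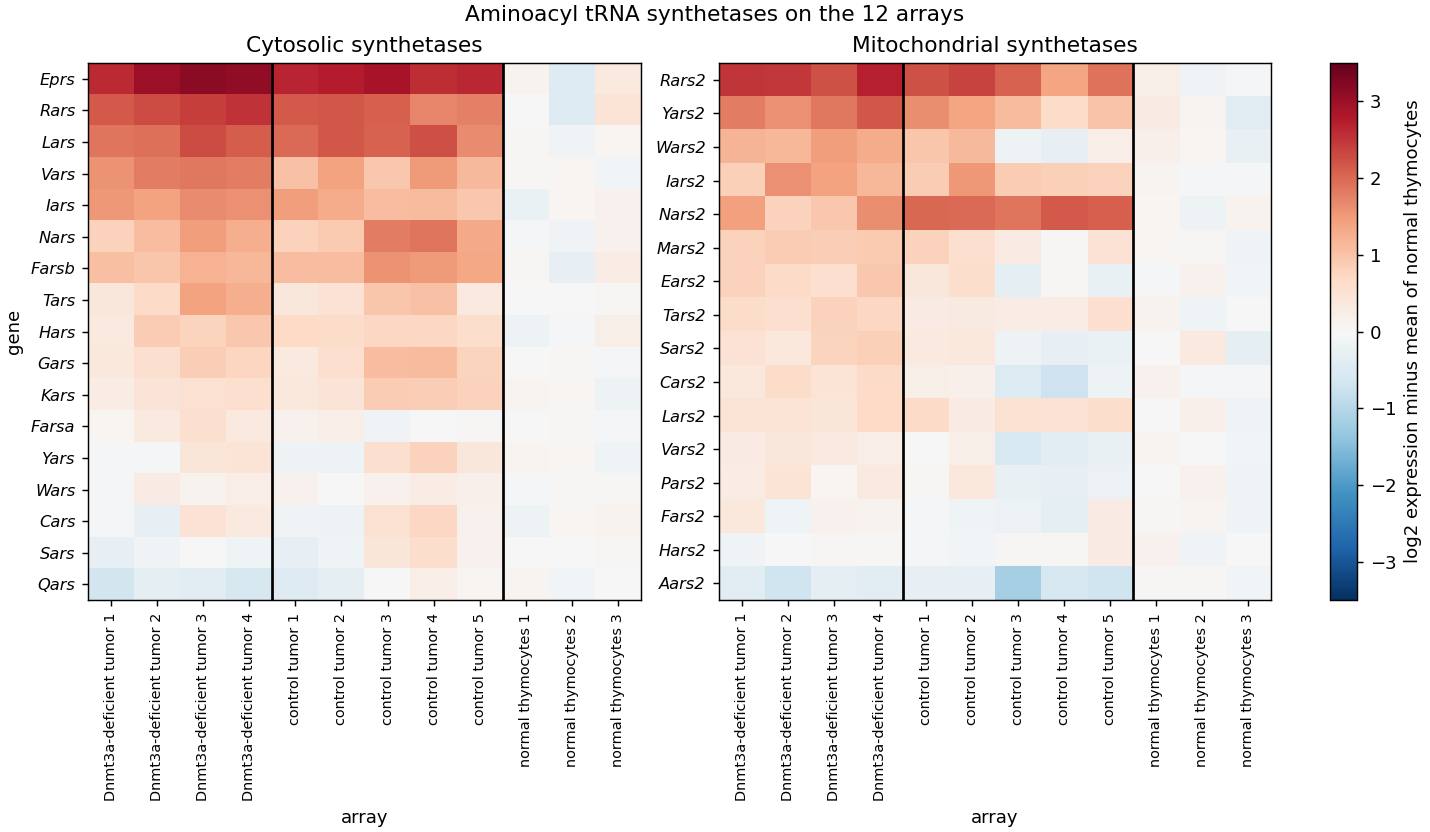
Log2 expression of each of the 33 synthetases (down the page) on each of the 12 arrays (across), shown as the difference from that gene's mean in normal thymocytes. Eprs, Rars, Lars and Rars2 are well above normal thymocytes on every tumor array, while Qars is not, and control tumors 3 to 5 are lower than control tumors 1 and 2 for several mitochondrial enzymes.

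The cytosolic enzymes had 11 of 17 higher and 1 lower in deficient tumors, and 10 of 17 higher and none lower in control tumors. Of the mitochondrial enzymes, 10 of 16 rose and none fell in deficient tumors, while 5 rose and 1 fell in control tumors. The median difference of the cytosolic enzymes was 0.74 in deficient tumors and 0.68 in control tumors. For the mitochondrial enzymes it was 0.66 in deficient tumors and 0.22 in control tumors. Whether the compartments differ was not tested. Of the calls against normal thymocytes, 13 of 22 in deficient tumors and 11 of 16 in control tumors held under every alternative run, and the members that did not are named with their genes below. The sizes depend on the scaling of the arrays: with each array's 75th percentile subtracted, 13 members rose in deficient tumors, with medians of 0.35 for the cytosolic and 0.27 for the mitochondrial enzymes, while the median of all genes became -0.49. In control tumors the same scaling left 11 members higher, with medians of 0.48 and 0.01, and moved the median of all genes to -0.29. Of all genes, it called 13.2% higher and 47.9% lower in deficient tumors, and 10.3% and 21.7% in control tumors. Quantile scaling left 15 members higher in deficient tumors and cyclic loess scaling 14, where 16% and 17.1% of all genes were higher. The medians of all genes there were -0.06 and -0.00. In control tumors each of these scalings left 14 members higher, where 12.1% and 12.7% of all genes were.

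**Figure D2:**
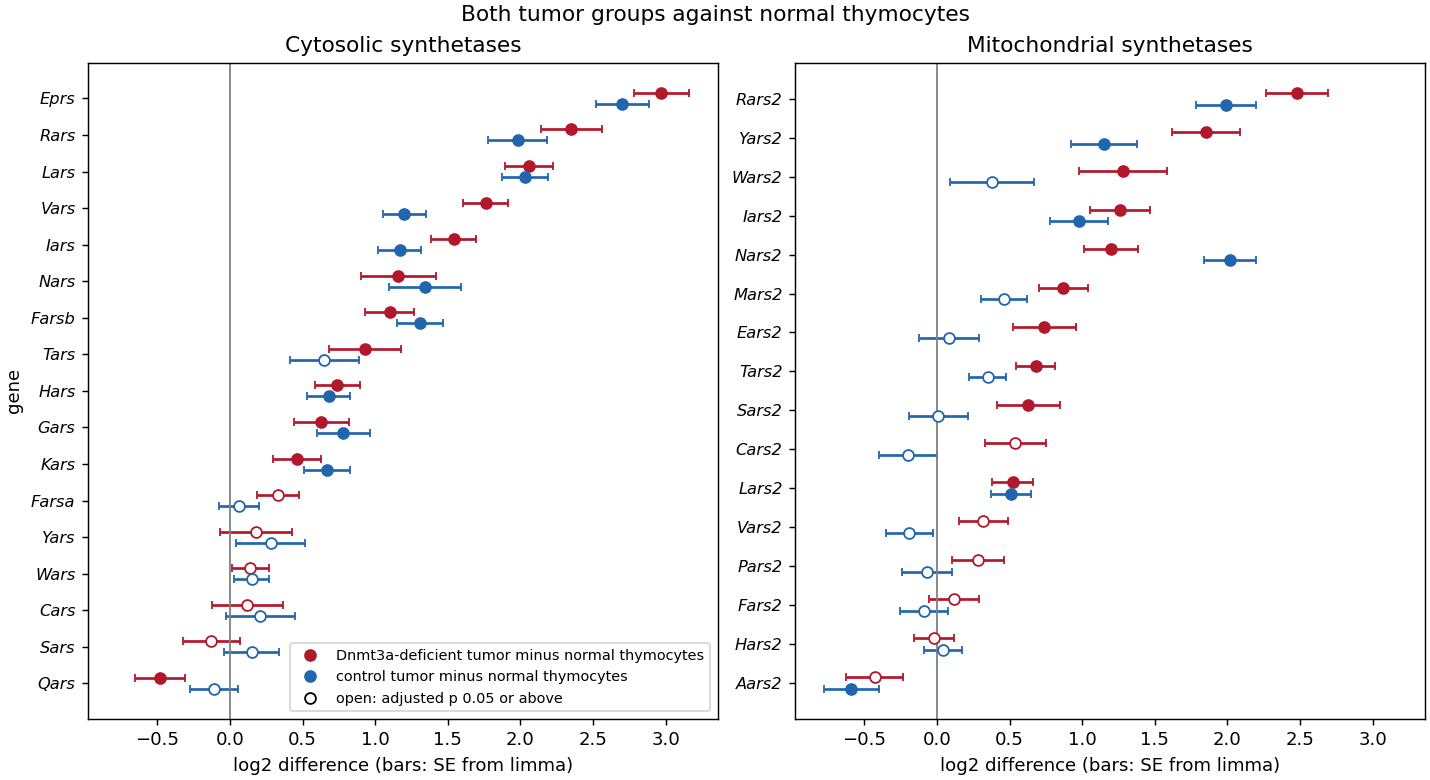
Difference from normal thymocytes (log2) of each synthetase, for Dnmt3a-deficient tumors and for control tumors, with bars for limma's standard error and filled points for members that passed the test. Eprs is the highest cytosolic enzyme at 2.97 in deficient tumors and 2.70 in control tumors, and Qars at -0.48 is the lone member that fell in deficient tumors.

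Promoter sequence from RefSeq (assembly GRCm38.p6) was matched by gene identifier for 24 of the 33 members. Those with no window used are Cars, Hars, Hars2, Lars, Nars, Pars2, Rars, Vars and Wars. Each 300-base window around a start site was searched on both strands for CACGTG, the E-box that MYC with its partner MAX binds, and for TGATGNAA, the core of the element that ATF4 binds together with C/EBP factors. These motifs do not overlap. CACGTG was in 4 of 24 member windows (16.7%), against 7.24% of the 27025 windows of all genes. Of these, 3 belonged to the 10 cytosolic members (Farsb, Iars and Tars) and 1 to the 14 mitochondrial members (Ears2). TGATGNAA was in 4 of 24 windows (16.7%), against 4.06% of all windows, and all 4 were cytosolic (Gars, Iars, Tars and Yars). A match describes these letters and is no evidence of binding. The windows are shown for the members with a motif and for Eprs, the member with the largest increase, which held neither. Each runs from 100 bases before the start to 30 bases from it, 5′ to 3′ on the gene's strand, with the motif letters in capitals. The Iars window is chr13:49682030-49682159 on the plus strand, that of Tars is chr15:11399629-11399758 on the minus strand, that of Gars is chr6:55037901-55038030 on the plus strand and that of Yars is chr4:129189803-129189932 on the plus strand. The Farsb window is chr1:78488868-78488997 on the minus strand, that of Ears2 is chr7:122067057-122067186 on the minus strand and that of Eprs is chr1:185362944-185363073 on the plus strand.
Iars: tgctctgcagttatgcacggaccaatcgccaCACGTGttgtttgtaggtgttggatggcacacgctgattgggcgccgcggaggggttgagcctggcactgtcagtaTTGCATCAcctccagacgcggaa
Tars: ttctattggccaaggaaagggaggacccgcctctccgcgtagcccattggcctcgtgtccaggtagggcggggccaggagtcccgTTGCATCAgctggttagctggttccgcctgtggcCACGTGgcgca
Gars: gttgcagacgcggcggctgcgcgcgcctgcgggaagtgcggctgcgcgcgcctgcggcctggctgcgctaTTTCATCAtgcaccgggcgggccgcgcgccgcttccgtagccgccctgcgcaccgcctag
Yars: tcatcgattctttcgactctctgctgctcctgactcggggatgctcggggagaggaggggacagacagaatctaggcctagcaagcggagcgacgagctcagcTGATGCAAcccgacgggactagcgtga
Farsb: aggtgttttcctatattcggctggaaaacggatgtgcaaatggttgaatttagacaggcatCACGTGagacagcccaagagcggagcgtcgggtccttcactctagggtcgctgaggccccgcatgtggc
Ears2: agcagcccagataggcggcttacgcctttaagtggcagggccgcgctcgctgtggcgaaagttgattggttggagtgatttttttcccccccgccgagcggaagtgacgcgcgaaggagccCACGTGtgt
Eprs: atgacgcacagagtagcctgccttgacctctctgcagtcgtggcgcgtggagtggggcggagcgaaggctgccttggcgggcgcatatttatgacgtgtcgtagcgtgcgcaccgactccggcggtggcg

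The enzymes of the multisynthetase complex held the largest cytosolic increases and also the lone decrease. Of the 6 members that belong to it, 5 rose in both tumor groups (Eprs, Rars, Lars, Iars and Kars), and Qars fell in deficient tumors. Their median difference from normal thymocytes was 1.80 in deficient tumors and 1.58 in control tumors. The 11 cytosolic members outside the complex had 6 higher in deficient tumors and 5 in control tumors, with medians of 0.63 and 0.65. With the 75th percentile subtracted, 3 of these 11 were higher in each tumor group, with medians of 0.24 in deficient tumors and 0.44 in control tumors, and quantile or cyclic loess scaling also left 3 higher in deficient tumors. Of all genes, 13.2%, 16% and 17.1% were higher in deficient tumors under these 3 scalings, and 10.3% in control tumors under the first.

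Eprs, the bifunctional glutamate and proline enzyme, was 10.30, 10.68, 10.84 and 10.79 in deficient tumors, 10.35, 10.42, 10.56, 10.27 and 10.33 in control tumors, and 7.80, 7.23 and 8.01 in normal thymocytes. All 9 tumor arrays lay more than 2 log2 units above the highest normal array, and the tumor groups overlapped. The rise was 7.85-fold in deficient tumors (difference 2.97, SE 0.19, limma adjusted p = 4.8e-07) and 6.52-fold in control tumors (difference 2.70, SE 0.182, adjusted p = 1.1e-06). By size of increase this placed Eprs at rank 91 in deficient tumors and rank 51 in control tumors among the 19309 genes. Rars, the arginine enzyme, was 11.17, 11.29, 11.44 and 11.56 in deficient tumors, 11.18, 11.19, 11.12, 10.72 and 10.77 in control tumors, and 9.0, 8.56 and 9.49 in normal thymocytes. Its tumor and normal values were far apart, although control tumors 4 and 5 were the lowest of the tumors. The difference was 2.35 (SE 0.211, adjusted p = 4.0e-06) in deficient tumors and 1.98 (SE 0.202, adjusted p = 1.7e-05) in control tumors.

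Lars, the leucine enzyme, which is also known as a leucine sensor for mTORC1 signalling, was 9.57, 9.62, 9.99 and 9.83 in deficient tumors, 9.68, 9.88, 9.77, 9.96 and 9.35 in control tumors, and 7.74, 7.58 and 7.77 in normal thymocytes. The tumor groups overlapped, and both were about 4-fold above normal thymocytes (4.17-fold in deficient tumors, adjusted p = 1.9e-06, and 4.09-fold in control tumors, adjusted p = 2.7e-06). Iars, the isoleucine enzyme, was 10.92, 10.79, 11.05 and 10.99 in deficient tumors, 10.85, 10.68, 10.46, 10.51 and 10.33 in control tumors, and 9.17, 9.46 and 9.55 in normal thymocytes. Control tumors 3 to 5 were its lowest tumor arrays, and control tumor 1 lay within the deficient range. The rise was 1.54 (SE 0.155, adjusted p = 9.2e-06) in deficient tumors and 1.17 (SE 0.148, adjusted p = 8.4e-05) in control tumors. A second Iars probe set, dimmer and not used for the set, gave differences of 2.20 in deficient tumors and 1.45 in control tumors from normal thymocytes. The calls of Eprs, Rars, Lars and Iars against normal thymocytes held under every alternative run.

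Kars, the lysine enzyme of both compartments, was 9.48 to 9.81 in deficient tumors, 9.57 to 10.11 in control tumors and 9.03 to 9.31 in normal thymocytes. The rise was 0.46 (adjusted p = 0.0418) in deficient tumors and 0.67 (adjusted p = 0.00698) in control tumors. In deficient tumors its call ended without normal array 1 (adjusted p = 0.0598), 2 (0.0703) or 3 (0.153) and without deficient tumor 2 (0.0698), 3 (0.0869) or 4 (0.103). It also ended with the 75th percentile subtracted, where the difference was 0.08 in deficient tumors (adjusted p = 0.761) and 0.46 in control tumors (adjusted p = 0.0967), and, for control tumors, with control tumors 1 and 2 alone (adjusted p = 0.0508). Quantile (adjusted p = 0.451) and cyclic loess scaling (0.622) ended the call of Kars in deficient tumors too, and cyclic loess scaling that in control tumors (0.0563). Qars, the glutamine enzyme, was 9.98, 10.27, 10.21 and 10.05 in deficient tumors, 10.17, 10.26, 10.61, 10.83 and 10.67 in control tumors, and 10.70, 10.52 and 10.62 in normal thymocytes. All 4 deficient arrays and control tumors 1 and 2 lay below the normal range, while control tumors 3 to 5 lay within or above it. The difference was -0.48 in deficient tumors (SE 0.17, adjusted p = 0.0388) and -0.11 in control tumors (adjusted p = 0.682). The call in deficient tumors ended when normal array 1 (adjusted p = 0.112), 2 (0.0636) or 3 (0.0896) or deficient tumor 1 (0.0916), 3 (0.0566) or 4 (0.088) was left out, and with arrays centred on their medians (0.0992).

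The 3 scaffolds of the complex rose too. Aimp2 rose by 1.35 in deficient tumors (SE 0.155, adjusted p = 2.7e-05) and by 0.79 in control tumors (SE 0.148, adjusted p = 0.00157). The differences of Eef1e1 were 1.06 and 0.93 (adjusted p = 3.1e-04 and 8.8e-04), and those of Aimp1 were 0.89 and 1.04 (adjusted p = 0.00185 and 6.6e-04), each given for deficient tumors and then for control tumors. With the 75th percentile subtracted, Aimp1 in deficient tumors differed by 0.51 (adjusted p = 0.067), and with quantile scaling by 0.51 (adjusted p = 0.101). Mars1, an enzyme of the complex outside the naming rule, did not pass the test, with differences of 0.33 in deficient tumors (adjusted p = 0.117) and 0.14 in control tumors (adjusted p = 0.533).

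**Figure D3:**
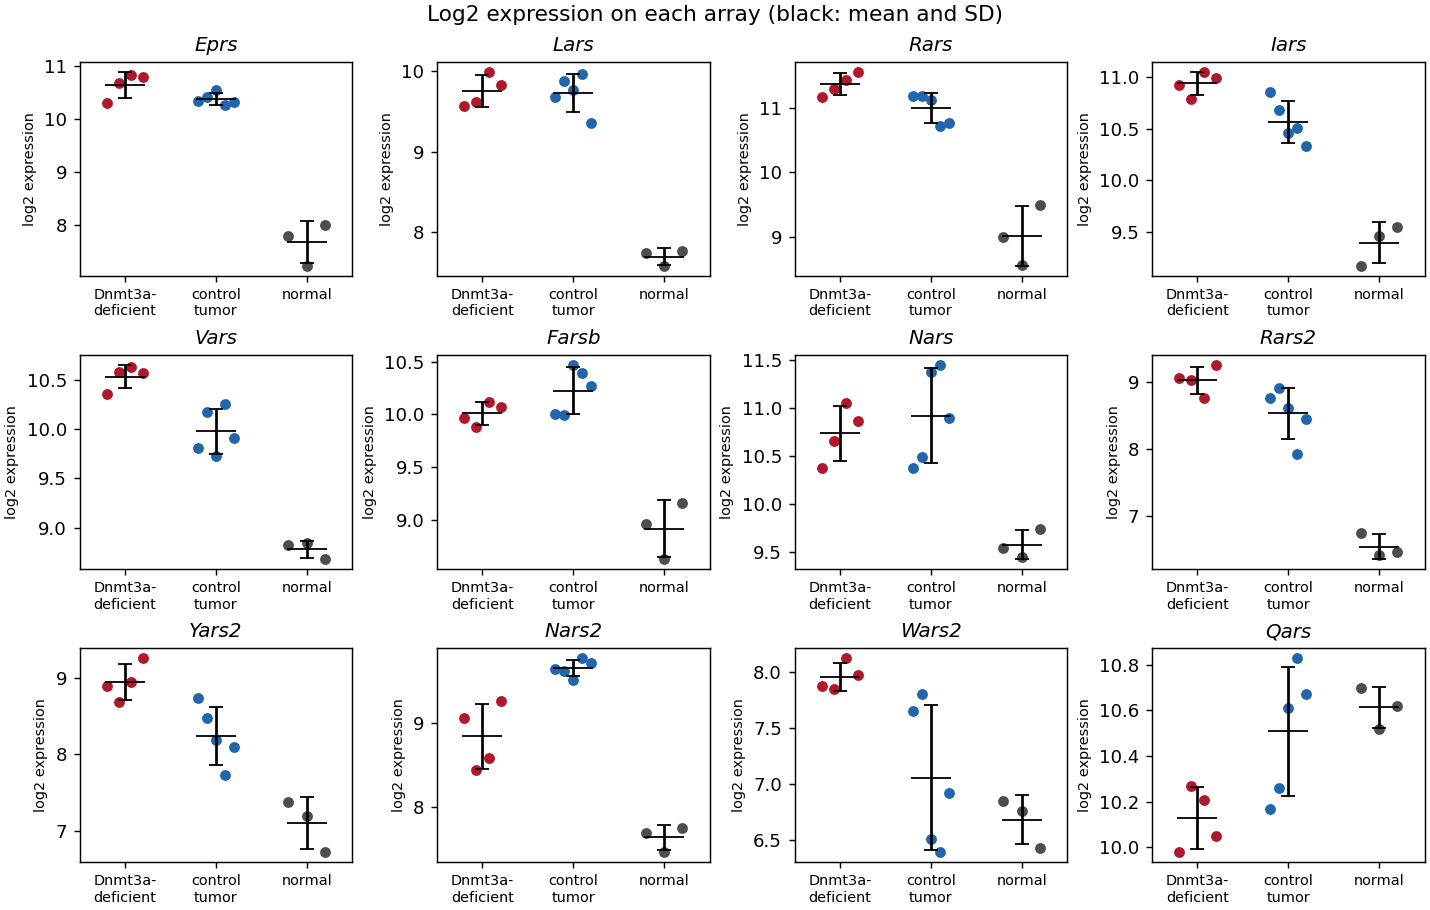
Log2 expression per array of the members with the largest differences, in Dnmt3a-deficient tumors, control tumors and normal thymocytes, with the group mean and SD in black. Eprs lies between 10.27 and 10.84 on the 9 tumor arrays and between 7.23 and 8.01 on the normal arrays, while Nars2 is 8.45 to 9.27 in deficient tumors and 9.52 to 9.78 in control tumors.

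Outside the complex, the valine, asparagine and phenylalanine enzymes led. Vars, which charges valine, was 10.36, 10.58, 10.63 and 10.57 in deficient tumors, 9.81, 10.18, 9.73, 10.26 and 9.91 in control tumors, and 8.82, 8.84 and 8.68 in normal thymocytes. The 3 groups did not overlap, with deficient tumors highest. The difference from normal thymocytes was 1.76 (SE 0.154, adjusted p = 3.5e-06) in deficient tumors and 1.20 (SE 0.148, adjusted p = 6.9e-05) in control tumors. Nars, which charges asparagine, was 10.38, 10.66, 11.05 and 10.86 in deficient tumors, 10.38, 10.49, 11.38, 11.45 and 10.90 in control tumors, and 9.54, 9.45 and 9.74 in normal thymocytes. Control tumors 3 and 4, the arrays with high neutrophil markers, were its highest, and control tumors 1 and 2 were near the lowest deficient array. The part of those markers in the result was not tested. Nars rose by 1.16 in deficient tumors (SE 0.259, adjusted p = 0.00356) and by 1.34 in control tumors (SE 0.248, adjusted p = 0.00139), and by 0.86 with control tumors 1 and 2 alone (adjusted p = 0.00737).

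Farsb, the beta subunit of the cytosolic phenylalanine enzyme, was 9.97, 9.88, 10.12 and 10.07 in deficient tumors, 10.00, 9.99, 10.47, 10.39 and 10.27 in control tumors, and 8.96, 8.63 and 9.16 in normal thymocytes. It rose by 1.10 in deficient tumors (SE 0.168, adjusted p = 2.3e-04) and by 1.31 in control tumors (SE 0.16, adjusted p = 6.6e-05). The alpha subunit of the same enzyme, Farsa, was 9.33, 9.62, 9.82 and 9.62 in deficient tumors, 9.42, 9.50, 9.14, 9.27 and 9.31 in control tumors, and 9.29, 9.31 and 9.20 in normal thymocytes. The control range of Farsa enclosed the normal one, and neither difference passed (0.33 in deficient tumors, adjusted p = 0.0861, and 0.06 in control tumors, adjusted p = 0.79). Without deficient tumor 1, Farsa passed in deficient tumors (adjusted p = 0.0406). The difference between the subunits was not tested.

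Tars, the threonine enzyme, whose window holds both motifs as that of Iars does, was 8.68, 8.94, 9.70 and 9.54 in deficient tumors, 8.68, 8.79, 9.25, 9.30 and 8.63 in control tumors, and 8.27, 8.26 and 8.33 in normal thymocytes. It varied by over 1 log2 unit among deficient tumors, and every tumor array lay above the normal range. The difference was 0.93 in deficient tumors (SE 0.247, adjusted p = 0.0098) and 0.65 in control tumors (SE 0.236, adjusted p = 0.0631). The first ended with the 75th percentile subtracted (0.55, adjusted p = 0.0947) and with quantile (adjusted p = 0.116) or cyclic loess scaling (0.0871). The second passed without control tumor 5 (adjusted p = 0.0468). Gars, the glycine enzyme of both compartments, was 10.27, 10.47, 10.76 and 10.65 in deficient tumors, 10.24, 10.51, 10.98, 11.02 and 10.69 in control tumors, and 9.89, 9.96 and 9.88 in normal thymocytes. All tumor arrays exceeded the normal ones, and control tumors 3 and 4 were again the highest. Its rise was 0.63 in deficient tumors (SE 0.191, adjusted p = 0.0202) and 0.78 in control tumors (SE 0.183, adjusted p = 0.00694). The call of Gars in deficient tumors ended without normal array 1 (adjusted p = 0.0559) or 3 (0.0578), without deficient tumor 3 (0.0566) or 4 (0.0533), and with the 75th percentile subtracted (0.24, adjusted p = 0.388). Quantile (adjusted p = 0.113) and cyclic loess scaling (0.283) ended it as well. The call in control tumors ended with the 75th percentile subtracted (0.57, adjusted p = 0.0724) and with control tumors 1 and 2 alone (0.47, adjusted p = 0.0539).

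Hars, the histidine enzyme, was 8.93, 9.47, 9.35 and 9.51 in deficient tumors, 9.27, 9.22, 9.30, 9.31 and 9.20 in control tumors, and 8.41, 8.53 and 8.79 in normal thymocytes. Deficient tumor 1 was the lowest tumor array and still lay above the normal range. It rose by 0.74 in deficient tumors (adjusted p = 0.00259) and by 0.68 in control tumors (adjusted p = 0.00465). With the 75th percentile subtracted neither passed (0.35, adjusted p = 0.107, in deficient tumors and 0.48, adjusted p = 0.0522, in control tumors). In deficient tumors the call of Hars also ended with quantile (adjusted p = 0.0696) and cyclic loess scaling (0.0669).

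Besides Farsa, 4 cytosolic enzymes did not pass the test in either tumor group. Cars, which charges cysteine, differed by 0.12 in deficient tumors and 0.21 in control tumors, and Sars, which charges serine, by -0.13 and 0.15 in the same order. The tyrosine enzyme Yars differed by 0.18 in deficient tumors and 0.28 in control tumors. Wars, which charges tryptophan, differed by 0.14 in deficient tumors and 0.15 in control tumors. Their adjusted p-values lay between 0.412 (Wars in control tumors) and 0.73 (Cars in deficient tumors). Yars passed against normal thymocytes with control tumors 3 to 5 alone (0.58, adjusted p = 0.0313). Its window holds TGATGNAA, as do those of Gars, Iars and Tars, which rose in deficient tumors.

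Among the mitochondrial enzymes, those for arginine, tyrosine, isoleucine, asparagine and leucine rose in both tumor groups, and that for leucine, Lars2, is given further below. Rars2, the mitochondrial arginine enzyme, was 9.05, 9.02, 8.76 and 9.25 in deficient tumors, 8.76, 8.91, 8.60, 7.92 and 8.45 in control tumors, and 6.75, 6.41 and 6.46 in normal thymocytes. Control tumor 4, its lowest tumor array, was still more than 1 log2 unit above the highest normal array. The rise was 5.58-fold in deficient tumors (difference 2.48, SE 0.214, adjusted p = 3.1e-06) and 3.97-fold in control tumors (difference 1.99, SE 0.204, adjusted p = 1.8e-05). Yars2, the mitochondrial tyrosine enzyme, was 8.89, 8.68, 8.94 and 9.26 in deficient tumors, 8.73, 8.47, 8.19, 7.73 and 8.09 in control tumors, and 7.38, 7.19 and 6.72 in normal thymocytes. Control tumor 1 was the sole control array inside the deficient range, and all tumors were above normal thymocytes. Yars2 rose by 1.85 in deficient tumors (SE 0.235, adjusted p = 5.6e-05) and by 1.15 in control tumors (SE 0.224, adjusted p = 0.00208).

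Iars2, the mitochondrial isoleucine enzyme, was 8.92, 9.69, 9.50 and 9.24 in deficient tumors, 8.96, 9.60, 8.96, 8.91 and 8.88 in control tumors, and 8.18, 8.03 and 8.01 in normal thymocytes. Among control tumors, number 2 stood far above the other 4, which lay near the lowest deficient array. The rise was 1.26 in deficient tumors (SE 0.208, adjusted p = 4.1e-04) and 0.98 in control tumors (SE 0.199, adjusted p = 0.00261). Nars2, the mitochondrial asparagine enzyme, was 9.07, 8.45, 8.59 and 9.27 in deficient tumors, 9.65, 9.63, 9.52, 9.78 and 9.72 in control tumors, and 7.70, 7.47 and 7.76 in normal thymocytes. The 3 groups did not overlap, and control tumors were highest and close together. Nars2 rose by 1.20 in deficient tumors (SE 0.187, adjusted p = 2.7e-04) and by 2.02 in control tumors (SE 0.179, adjusted p = 6.4e-06). The calls of Rars2, Yars2, Iars2 and Nars2 against normal thymocytes held under every alternative run.

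Wars2, the mitochondrial tryptophan enzyme, was 7.88, 7.85, 8.13 and 7.98 in deficient tumors, 7.65, 7.81, 6.51, 6.39 and 6.92 in control tumors, and 6.85, 6.76 and 6.43 in normal thymocytes. Control tumors 1 and 2 lay just below the deficient range, and control tumors 3 to 5 were at the level of normal thymocytes. The difference was 1.28 in deficient tumors (SE 0.303, adjusted p = 0.00503) and 0.38 in control tumors (SE 0.29, adjusted p = 0.387). With control tumors 1 and 2 alone, Wars2 rose by 1.05 over normal thymocytes (adjusted p = 8.2e-04), while with control tumors 3 to 5 alone the difference was -0.07 (adjusted p = 0.808).

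Of the other mitochondrial enzymes, 5 rose in deficient tumors. Mars2, for methionine, rose by 0.87 there (adjusted p = 0.00126), and its difference in control tumors was 0.46 (adjusted p = 0.0548), which passed without control tumor 4 (adjusted p = 0.0135). Tars2, for threonine, rose by 0.68 in deficient tumors (adjusted p = 0.00142), against a difference of 0.35 in control tumors (adjusted p = 0.0632). With the 75th percentile subtracted Tars2 differed by 0.30 in deficient tumors (adjusted p = 0.125), and with cyclic loess scaling by 0.36 (adjusted p = 0.0642). Ears2, for glutamate, rose by 0.74 in deficient tumors (adjusted p = 0.0161), while its difference in control tumors was 0.08 (adjusted p = 0.808). The call of Ears2 ended without normal array 3 (adjusted p = 0.057) and with the 75th percentile subtracted (0.36, adjusted p = 0.0999). Sars2, for serine, rose by 0.63 in deficient tumors (adjusted p = 0.0351) and differed by 0.01 in control tumors (adjusted p = 0.978). Its call ended without normal array 1 (adjusted p = 0.0828) or 3 (0.152), without deficient tumor 3 (0.0831) or 4 (0.0907), and with the 75th percentile subtracted (0.24, adjusted p = 0.269). Quantile (adjusted p = 0.248) and cyclic loess scaling (0.154) also ended the call of Sars2. Lars2, for leucine, rose by 0.52 in deficient tumors (adjusted p = 0.0118) and by 0.51 in control tumors (adjusted p = 0.0138). Both calls of Lars2 ended without normal array 3 (adjusted p = 0.0552 in deficient tumors and 0.0695 in control tumors) and with the 75th percentile subtracted (0.13, adjusted p = 0.503, in deficient tumors and 0.31, adjusted p = 0.154, in control tumors). Quantile scaling ended both as well (adjusted p = 0.586 in deficient tumors and 0.19 in control tumors), and cyclic loess scaling that in deficient tumors (0.172).

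In contrast to these, Aars2, the mitochondrial alanine enzyme, was lower in tumors: 8.16, 7.82, 8.20 and 8.16 in deficient tumors, 8.24, 8.22, 7.36, 7.97 and 7.82 in control tumors, and 8.57, 8.56 and 8.42 in normal thymocytes. Every tumor array lay below every normal array, and control tumor 3 was the lowest. The difference was -0.43 in deficient tumors (SE 0.198, adjusted p = 0.106) and -0.59 in control tumors (SE 0.189, adjusted p = 0.0365). The call in control tumors ended without normal array 1 (adjusted p = 0.104), 2 (0.116) or 3 (0.0664), without control tumor 3 (0.0523) or 5 (0.0583), and with control tumors 1 and 2 alone (-0.28, adjusted p = 0.262). In deficient tumors the decrease passed with the 75th percentile subtracted (-0.81, adjusted p = 0.00212). It also passed with quantile (-0.78, adjusted p = 0.00227) and cyclic loess scaling (-0.66, adjusted p = 0.00738) and in a fit of both groups alone (adjusted p = 0.0292). The other 5 mitochondrial enzymes passed in neither group. Cars2 differed by 0.54 in deficient tumors (adjusted p = 0.0591) and -0.20 in control tumors. For Vars2 the differences were 0.32 in deficient tumors and -0.19 in control tumors, and for Pars2 0.28 in deficient tumors and -0.07 in control tumors. Fars2 differed by 0.12 in deficient tumors and -0.09 in control tumors, and Hars2 by -0.02 in deficient tumors and 0.04 in control tumors. Hars2 and Hars are neighbours on chromosome 18 that share bases in the RefSeq annotation, and only Hars rose in both tumor groups. Whether their differences are unequal was not tested.

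**Figure D4:**
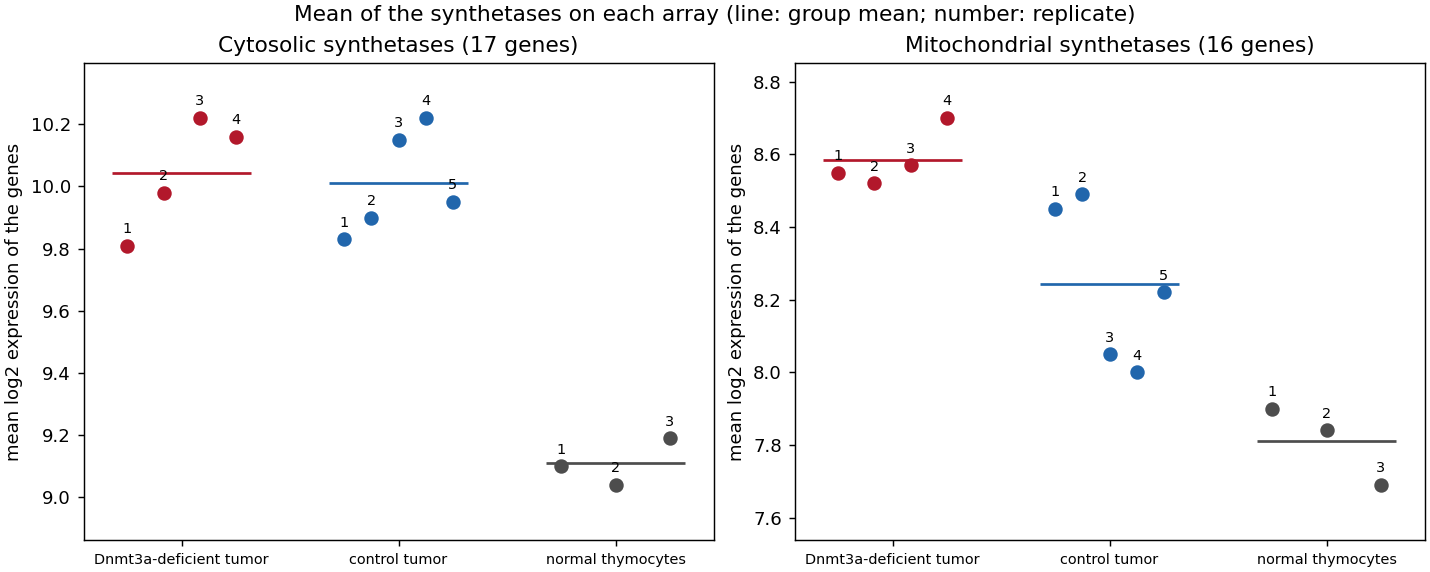
Mean log2 expression of the 17 cytosolic and of the 16 mitochondrial synthetases on each array, by group, with a line at the group mean. The cytosolic mean is 9.81 to 10.22 in deficient tumors, 9.83 to 10.22 in control tumors and 9.04 to 9.19 in normal thymocytes, and the mitochondrial mean is 8.52 to 8.70, 8.0 to 8.49 and 7.69 to 7.90 in the same order.

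Enzymes for the same amino acid in the 2 compartments did not always move alike. There were 13 cytosolic members with a mitochondrial partner, covering 12 amino acids, since both Farsa and Farsb pair with Fars2. In deficient tumors the cytosolic difference from normal thymocytes was the larger in 7 pairs and in control tumors in 9. For arginine both enzymes rose by nearly the same amount, with Rars at 2.35 and Rars2 at 2.48 in deficient tumors. For leucine and valine the cytosolic enzyme led, with Lars at 2.06 and Lars2 at 0.52, and Vars at 1.76 and Vars2 at 0.32, in deficient tumors. Tyrosine and tryptophan showed the reverse order, with Yars at 0.18 and Yars2 at 1.85, and Wars at 0.14 and Wars2 at 1.28. These pair differences were not tested. By structural class, 12 of 18 class I synthetases rose and 1 fell in deficient tumors, against 9 of 15 class II enzymes with none lower. In control tumors 9 of 18 class I enzymes rose, and 6 of 15 class II enzymes rose with 1 lower. These counts depend on scaling. In deficient tumors, class I had 10 higher with the 75th percentile subtracted and 11 with quantile or cyclic loess scaling, while class II had 3, 4 and 3 higher in the same order and 1 lower in each. Of all genes, 13.2%, 16% and 17.1% were called higher under these scalings, and 47.9%, 18.5% and 15.4% lower. Whether the classes differ was not tested. In control tumors the 75th percentile left 8 of class I and 3 of class II higher, where 10.3% of all genes were.

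The comparison of Dnmt3a-deficient with control tumors asks whether synthetase levels in MYC lymphoma differ with Dnmt3a status. No member was called higher and 1, Nars2, was called lower, where 0.590% of all genes were called higher and 0.228% lower by limma. At an unadjusted p under 0.05 there were 14 members, of which 11 were mitochondrial, and 20.2% of all genes. With the array values given above, Nars2 was lower in every deficient tumor than in every control tumor, with a difference of -0.81 (SE 0.164, adjusted p = 0.0456). This call depended on single arrays. It ended without control tumor 3 (adjusted p = 0.094), 4 (0.115) or 5 (0.0638) and without deficient tumor 1 (0.0541), 2 (0.0795), 3 (0.148) or 4 (0.0513). It also ended when only the tumor groups were fitted (adjusted p = 0.116).

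The other mitochondrial enzymes mostly had positive differences: 14 of 16 were above 0 and 2 (Nars2 and Hars2) below, with a median of 0.39. The cytosolic enzymes had 8 above and 9 below 0, with a median of -0.02, and the median of all genes was -0.01. With the 75th percentile subtracted the medians were 0.21 for the mitochondrial enzymes, -0.19 for the cytosolic enzymes and -0.19 for all genes. Quantile scaling gave 0.25, -0.14 and -0.01 in the same order, and cyclic loess scaling 0.26, -0.18 and -0.01. The largest positive differences that did not pass were those of Wars2 (0.91, SE 0.266, adjusted p = 0.11), Cars2 (0.73, SE 0.184, adjusted p = 0.0772) and Yars2 (0.70, SE 0.206, adjusted p = 0.111). Cars2 was 8.29, 8.55, 8.40 and 8.58 in deficient tumors and 8.12, 8.10, 7.45, 7.20 and 7.75 in control tumors, so the groups did not overlap, and control tumors 1 and 2 were the nearest to the deficient ones. Leaving out control tumor 1 or 2 brought calls of members that had none with all arrays. Without control tumor 1, Cars2 (adjusted p = 0.0358), Ears2 (0.0498), Wars2 (0.0427) and Yars2 (0.0422) passed as higher, as did 4.08% of all genes. Without control tumor 2, Cars2 (0.0243), Ears2 (0.022), Sars2 (0.0414), Vars (0.028), Vars2 (0.0247) and Wars2 (0.0226) passed as higher, as did 5.71% of all genes. With limma's array weights, 12 members were called higher and 2 lower, where 11.7% of all genes were called higher and 5.58% lower. With arrays centred on their medians, 2 members, Cars2 (adjusted p = 0.0427) and Vars (0.0349), were called higher, as were 1.71% of all genes.

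**Figure D5:**
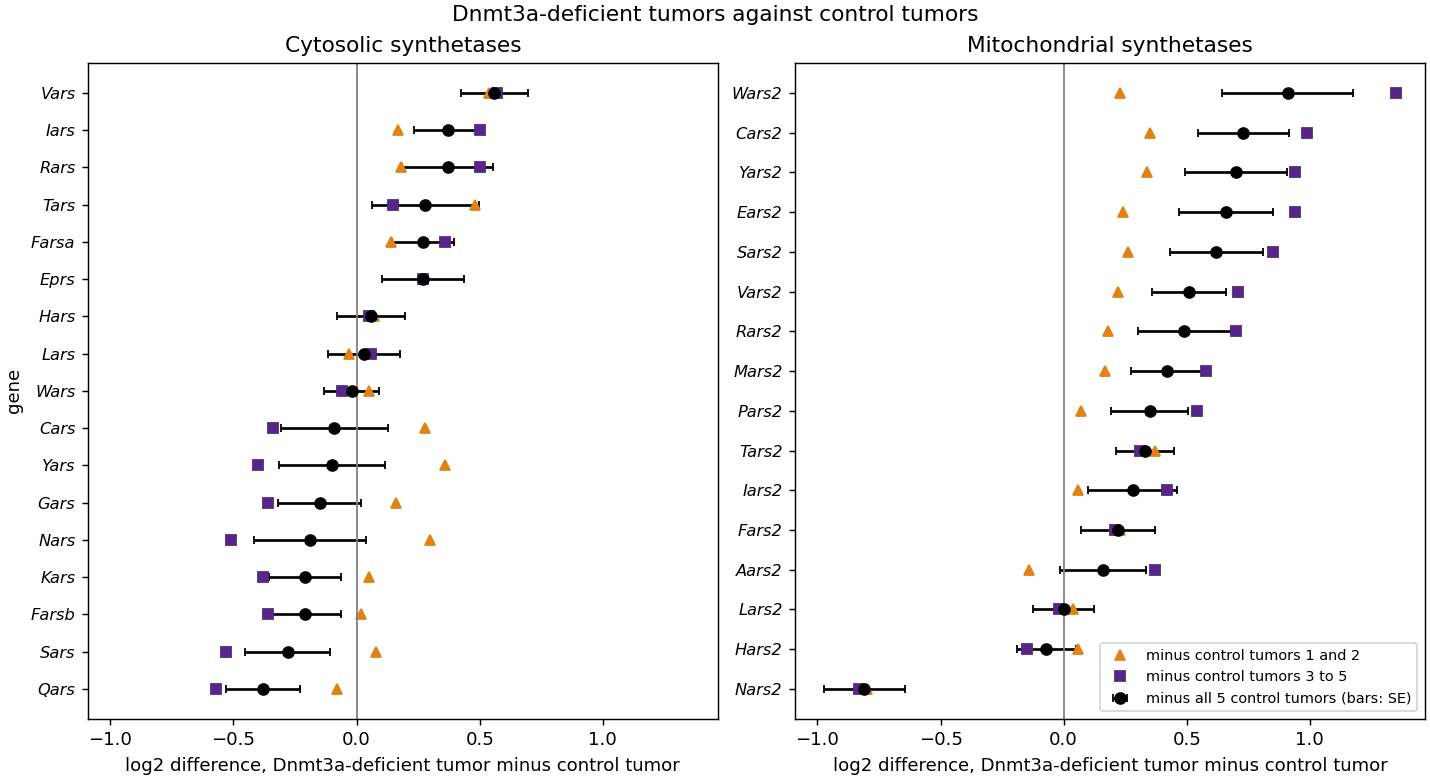
Difference of Dnmt3a-deficient from control tumors (log2) for each synthetase, against all 5 control tumors (black, bars for the standard error), against control tumors 1 and 2 and against control tumors 3 to 5. Mitochondrial enzymes such as Wars2 (0.91, 0.23 and 1.35) and Ears2 (0.66, 0.24 and 0.94) differ mostly against control tumors 3 to 5, while Nars2 is near -0.8 in each.

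The control tumors themselves fell apart along the 75th percentile of the arrays. Of the 16 mitochondrial enzymes, 11 were lower in each of control tumors 3 to 5 than in control tumors 1 and 2, 1 (Hars2) was higher in each and 4 overlapped. Of the 17 cytosolic enzymes, 9 were higher in each of control tumors 3 to 5, 3 (Farsa, Iars and Rars) were lower and 5 overlapped. Over all genes, 25.5% were lower in each of control tumors 3 to 5 and 21.1% were higher. Against control tumors 1 and 2, which share the percentile of the deficient arrays, no synthetase was called in either direction by limma, where 0.104% of all genes were called higher and 0.243% lower. At an unadjusted p under 0.05 there were 3 members (Nars2, Tars2 and Vars) and 9.98% of all genes. The medians there were 0.16 for the cytosolic and 0.20 for the mitochondrial enzymes. Against control tumors 3 to 5, 11 members were called higher and 4 lower, where 16.3% and 9.67% of all genes were. The 4 lower were Nars2 (-0.83, adjusted p = 0.00609), Qars (-0.57, adjusted p = 0.00427), Sars (-0.53, adjusted p = 0.0117) and Kars (-0.38, adjusted p = 0.0394). The 11 higher were Wars2, Cars2, Yars2, Ears2, Sars2, Vars2, Rars2, Mars2, Vars, Pars2 and Iars, led by Wars2 at 1.35 (adjusted p = 8.5e-05). Nars2 differed by -0.80 from control tumors 1 and 2 (adjusted p = 0.165), against -0.83 from control tumors 3 to 5. Both values use the same 4 deficient arrays. The percentile moves with these differences. Neutrophil markers do so only in part, with means of 8.16 and 7.96 in control tumors 3 and 4 but 5.64 in control tumor 5. The part of the percentile and of these markers in the differences was not tested.

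The same contrast with normal thymocytes was taken in each subset. Control tumors 3 to 5 had 17 members higher and 3 lower than normal thymocytes, where 13.1% of all genes were higher and 12.6% lower. Control tumors 1 and 2 had 16 members higher and 1 lower, where 19.1% of all genes were higher and 16.1% lower. Of the cytosolic enzymes the median was 0.85 with control tumors 3 to 5 and 0.47 with control tumors 1 and 2, and of the mitochondrial enzymes 0.03 and 0.42.

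Other genes of tRNA supply were counted from lists. Of 18 genes that aid charging or guard its quality, 12 rose in deficient tumors and 9 in control tumors, and none fell. Among all genes, 18.7% were called higher and 19.0% lower in deficient tumors, and 13.0% and 11.3% in control tumors. Trnt1, which adds the CCA end to tRNAs, rose by 2.78 in deficient tumors (SE 0.168, adjusted p = 3.3e-07) and by 2.54 in control tumors (SE 0.16, adjusted p = 7.9e-07). Xpot, which exports tRNAs from the nucleus, rose by 2.36 in deficient tumors and 1.96 in control tumors. The D-aminoacyl tRNA deacylase Dtd1 rose by 2.01 in deficient tumors and 1.47 in control tumors. Gatc, a subunit of the mitochondrial enzyme that makes glutaminyl tRNA, rose by 1.87 in deficient tumors and 0.99 in control tumors, where its call ended without normal array 3 (adjusted p = 0.077).

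Of 36 genes that process or modify tRNAs, 25 rose and 1 (Ctu2) fell in deficient tumors, and 19 rose and 1 (also Ctu2) fell in control tumors, with medians of 1.19 and 0.75. Higher calls covered 18.7% of all genes in deficient tumors and 13.0% in control tumors, and lower calls 19.0% and 11.3%. Ctu2, which helps thiolate tRNAs, fell by 0.46 in deficient tumors (adjusted p = 0.0125) and by 0.74 in control tumors (adjusted p = 5.9e-04). The call in deficient tumors ended without normal array 1 (adjusted p = 0.0561). Rpp38, a protein of the ribonuclease that trims the 5′ end of tRNAs, rose by 3.39 in deficient tumors and 2.42 in control tumors. The pseudouridine synthases Pus7 (2.72 in deficient tumors and 2.38 in control tumors) and Pus3 (2.74 and 2.21) rose as well. Qtrt1, a subunit of the queuine transferase, rose by 3.02 in deficient tumors (adjusted p = 6.6e-04), while its difference in control tumors was 1.46 (adjusted p = 0.0511). The tRNA methyltransferase Trmt5 rose by 2.29 in deficient tumors and 1.82 in control tumors. Rpp25, another protein of the 5′ ribonuclease, was the lone gene of these lists called between the tumor groups, higher in deficient tumors by 1.60 (SE 0.325, adjusted p = 0.0456). The call of Rpp25 ended without control tumor 3 (adjusted p = 0.119), 4 (0.117) or 5 (0.0642) and without deficient tumor 3 (0.148) or 4 (0.159), and the difference from control tumors 1 and 2 alone was 0.98 (adjusted p = 0.279).

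For RNA polymerase III, which transcribes tRNA genes, 11 of 21 genes rose and 3 fell in deficient tumors, and 8 rose and 3 fell in control tumors. The shares of all genes were 18.7% higher and 19.0% lower in deficient tumors, and 13.0% and 11.3% in control tumors. The lower counts of this list are near these shares. The largest increases were those of Ssb, the La protein that binds new polymerase III transcripts (3.36 in deficient tumors and 2.72 in control tumors), and of the initiation factor Bdp1 (2.42 and 2.00). The subunits Polr3g (1.87 in deficient tumors and 1.27 in control tumors) and Polr3b (1.71 and 1.33) also rose. Maf1, the repressor of this polymerase, fell by 1.80 in deficient tumors (adjusted p = 3.4e-05) and by 1.50 in control tumors (adjusted p = 1.5e-04). Of 10 elongation factors, 4 rose in each tumor group and none fell, beside the same shares of all genes. Eef1b2, which reloads the factor that carries charged tRNAs to the ribosome, rose by 1.41 in deficient tumors and 1.23 in control tumors, and the mitochondrial factors Gfm2 (0.92 and 0.78) and Tsfm (0.84 and 0.48) rose too. Eef2k, a kinase that inhibits elongation, rose by 1.05 in deficient tumors and differed by -0.06 in control tumors (adjusted p = 0.908). The call ended without normal array 1 (adjusted p = 0.0526), 2 (0.0507) or 3 (0.0743) or deficient tumor 3 (0.0587) or 4 (0.0589). Eef1a1, the carrier of charged tRNAs, differed by 0.19 in deficient tumors (adjusted p = 0.231) and rose by 0.36 in control tumors, a call that ended without normal array 1 (adjusted p = 0.0941) or 2 (0.114) or control tumor 3 (0.0598), 4 (0.0587) or 5 (0.0515). The control tumor call of Tsfm ended without normal array 1 (adjusted p = 0.101) or 3 (0.143) or control tumor 1 (0.0651), 2 (0.0658) or 3 (0.0532). These calls of Eef2k, Eef1a1 and Tsfm also ended with 75th percentile, quantile and cyclic loess scaling. Adjusted p-values in that order were 0.0665, 0.111 and 0.0502 for Eef2k, 0.451, 0.0996 and 0.508 for Eef1a1, and 0.163, 0.0994 and 0.0666 for Tsfm.

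Genes of the amino acid response other than synthetases had 14 of 28 higher and 1 (Atf5) lower in deficient tumors, and 11 higher and none lower in control tumors. For all genes the shares were 18.7% higher and 19.0% lower in deficient tumors, and 13.0% and 11.3% in control tumors. Asns, asparagine synthetase, which makes the amino acid that Nars and Nars2 load, was higher by 4.05 in deficient tumors (SE 0.241) and by 3.82 in control tumors (SE 0.23). The amino acid transporter Slc7a5 rose by 2.10 in deficient tumors and 1.70 in control tumors, and the transporter Slc7a1 rose by 1.60 in deficient tumors and 1.56 in control tumors. Slc1a4, another transporter, rose by 1.42 in deficient tumors and 1.45 in control tumors. The deficient tumor call of Slc1a4 ended without normal array 1 (adjusted p = 0.0774) or 3 (0.0816) or deficient tumor 1 (0.0525), and the control tumor call without normal array 1 (0.0903) or 3 (0.0927). Mthfd2, of mitochondrial folate metabolism, rose by 2.08 in deficient tumors and 1.36 in control tumors, and the secreted protein Stc2 by 1.60 in deficient tumors and 1.23 in control tumors. Atf4 itself averaged 8.21 ± 0.40 (SD, n = 4) in deficient tumors, 8.11 ± 0.26 (SD, n = 5) in control tumors and 8.17 ± 0.13 (SD, n = 3) in normal thymocytes, and did not pass against either. Of the 10 cytosolic synthetases known as ATF4 targets, 6 rose in deficient tumors and 5 in control tumors, with medians of 0.78 and 0.71. The 7 cytosolic synthetases outside that list had 5 higher and 1 lower in deficient tumors and 5 higher in control tumors, with medians of 0.74 and 0.68. Under the 4 other scalings of the arrays the medians of the charging, processing, polymerase III and amino acid response lists stayed above 0 in both tumor groups, while that of the elongation factors in deficient tumors lay between -0.09 and 0.37.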

How the data were processed

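Biotin-labelled RNA was hybridised to 12 whole-transcript arrays of 1 channel each. The authors deposited log2 values per probe set, and the submitters' processing notes name RMA and Affymetrix Expression Console as the tools. Tool versions, and whether arrays were normalized in groups, are not stated in the sources used here. The quartiles of the deposited values differ between arrays, so every group difference may carry a difference of scale. The lowest values were 2.40 to 2.72. Differences of dim genes may be compressed, which was not tested.

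The platform annotation gives 1 symbol for 20870 of the 23858 probe sets, which were used, several for 1453 and none for 1535. The probe set with the highest mean was kept for each of 849 genes with several, giving 19309 genes. Dim genes were kept, and 0 columns of sample values were left unused. A single fit of all 12 arrays, with a mean for each of the 3 groups, was made with limma 3.58.1 in R 4.3.3 (lmFit and eBayes, 9 residual and 4.17 prior degrees of freedom), and all 3 contrasts were drawn from it. Tests were two-sided, with Benjamini-Hochberg adjustment over all genes per contrast, and called means an adjusted p under 0.05. Every adjusted p is limma's. The contrasts share arrays: both tumor groups were compared with the same normal thymocytes, and the tumor groups with each other. Precision is limited by how few arrays each group has.

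The members and the gene lists were chosen with earlier results of these data known, so no list carries a test of its own. Every member is named. In each comparison with normal thymocytes, the 8 cytosolic and 4 mitochondrial called members with the largest difference are given with values on every array. So are every member called between the tumor groups and a few that went against their class. Up to 4 called genes are named for each pathway list. Hars, Farsa and Cars2 were given array values after their differences were seen.

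Alternatives were other scalings (median, 75th percentile, quantile, cyclic loess), a filter on dim genes, trended robust eBayes, array weights, the mean over probe sets, 2-group fits, the replicate number as a block, and each array left out. The subsets of control tumors set against each other group, 1 and 2 or 3 to 5, follow the arrays' 75th percentile. The comparisons with control tumors 1 and 2 against normal thymocytes and of deficient tumors with control tumors 3 to 5 were added after seeing the data. The highest correlation between any arrays was 0.9863, so no array repeated another. The steps were tested on simulated data. Promoter windows are those RefSeq lists first for a gene (GRCm38.p6).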

Additional observations from a re-analysis of the deposited data

Results flagged for a closer look

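In control tumors, Iars2 was 9.60 on array 2, while the other 4 lay between 8.88 and 8.96. Tars2 was 9.67 on control array 5, with the others between 9.34 and 9.39. In Dnmt3a-deficient tumors, Aars2 was 7.82 on array 2, with the others between 8.16 and 8.20. Each of these arrays stood apart from its group by Dixon's criterion, and chance marks about 1 in 20 groups, where 3 of 66 (4.55%) were marked here. Control array 2 is also the array with high adipocyte markers, and their part in the value of Iars2 was not tested. Nars2 was the lone member whose level was called different between the tumor groups, with a difference of -0.81 for Dnmt3a-deficient minus control tumors.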

How the results depend on the processing

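Counts are members called. In Dnmt3a-deficient tumors against normal thymocytes, the 75th percentile scaling gave 13 higher, 2 lower and medians of 0.35 (cytosolic) and 0.27 (mitochondrial). It called 13.2% of all genes higher and 47.9% lower. Quantile scaling gave 15 higher and cyclic loess scaling 14, against 16% and 17.1% of all genes. Quantile and cyclic loess scaling each gave 2 lower and medians of 0.43 and 0.35, median centring gave 0 lower, and a fit of both groups alone gave 2 lower. The shares of all genes called lower were 18.5%, 15.4%, 13.3% and 23.2% in the same order. In control tumors against normal thymocytes, the 75th percentile gave a cytosolic median of 0.48, and a fit of both groups alone 0 lower, against 8.26% of all genes. Control tumors 3 to 5 gave 3 lower there, against 12.6% of all genes, and control tumors 1 and 2 a cytosolic median of 0.47. Between the tumor groups, where 0 rose and 1 fell, median centring gave 2 higher, array weights 12 higher and 2 lower, a fit of both groups alone 0 lower, control tumors 1 and 2 alone 0 lower, and control tumors 3 to 5 alone 11 higher and 4 lower. Of all genes, median centring called 1.71% higher, and array weights 11.7% higher and 5.58% lower. Against control tumors 3 to 5 alone, 16.3% of all genes were higher and 9.67% lower.

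With each array left out in turn, deficient tumors against normal thymocytes had 16 to 22 higher and 0 to 1 lower, with medians of 0.65 to 0.87 and 0.6 to 0.72. Of all genes, 15.5% to 17.9% were higher and 12.6% to 17% lower in these fits. Control tumors had 14 to 16 higher and 0 to 1 lower, with medians of 0.67 to 0.76 and 0.13 to 0.28, where 9.82% to 14.1% of all genes were higher and 6.74% to 12.2% lower. Between the tumor groups, 0 to 6 were higher and 0 to 1 lower, with medians of -0.07 to 0.05 and 0.32 to 0.46. The shares of all genes there were 0.057% to 5.71% higher and 0.0259% to 1.96% lower.

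The labels do not say whether the replicate numbers pair arrays across groups. Deviations of the same number correlated by -0.134 to 0.338 over 10 pairs, and the own number was best in 8 of 20 cases. With so few pairs, these values cannot decide it. With the replicate number as a block, deficient tumors had 19 higher and 1 lower, control tumors 15 higher and 0 lower, and 0 were called either way between the tumor groups, with Nars2 at an adjusted p of 0.0698. Of all genes, the block left 18.6% higher and 17.3% lower in deficient tumors, and 13.6% and 10.3% in control tumors.

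Over all genes, the share of calls that were higher moved with scaling. It was 49.6% in deficient tumors, against 60.4% with median centring and 21.6% with the 75th percentile. In control tumors it was 53.5%, against 32.1% with the 75th percentile. Between the tumor groups it was 72.2%, against 87.6% with median centring, 43% with the 75th percentile, 59.5% with quantile and 59.2% with cyclic loess scaling. The cause of these shifts was not tested. All genes called between the tumor groups numbered 114 higher and 44 lower, against 331 and 47 with median centring, 2250 and 1078 with array weights, and 0 and 1 in a fit of the tumor groups alone.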

Other observations

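Of the selenocysteine genes, Sepsecs rose by 1.11 in Dnmt3a-deficient tumors (limma adjusted p = 4.7e-05) and by 0.96 in control tumors (adjusted p = 1.5e-04), and Pstk rose in control tumors by 0.81 (adjusted p = 0.00131), against a difference of 0.31 in deficient tumors (adjusted p = 0.129). Pstk was not called between the tumor groups (adjusted p = 0.098). Sephs2 and Eefsec passed in neither, with differences of -0.59 and -0.40 in deficient tumors. Gatb, like Gatc a subunit of the enzyme that makes mitochondrial glutaminyl tRNA, rose by 1.41 in deficient tumors and 0.94 in control tumors. These genes were chosen after their values were seen.

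The genes of the methyltransferase pair Mettl1 and Wdr4, which modify tRNAs together, rose in deficient tumors by 1.72 and 0.72. In control tumors Mettl1 rose by 1.26, and Wdr4 differed by 0.45 (adjusted p = 0.0601). With the 75th percentile subtracted, Wdr4 differed by 0.33 in deficient tumors (adjusted p = 0.172), and with quantile scaling by 0.35 (adjusted p = 0.204). Polymerase III has alternative subunits that moved opposite ways in deficient tumors: Polr3g rose by 1.87, and Polr3gl fell by 0.77 (adjusted p = 0.00524). In control tumors Polr3g rose by 1.27 (adjusted p = 0.00459), and Polr3gl differed by -0.44 (adjusted p = 0.0849).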
